A study of Mus musculus with 6 samples.

Results

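MHC class II presentation was followed through 9 genes: the chains H2-Aa, H2-Ab1 and H2-Eb1, the invariant chain Cd74, the peptide loading factors H2-DMa, H2-DMb1, H2-Oa and H2-Ob, and the transcriptional activator Ciita. A gene was taken from a row of the deposited array table that names that gene and no other, and where a gene had several such rows the one with the highest mean was kept. By this rule 8 of the 9 genes were measured, among 19938 genes in all. The only row for H2-DMb1 also names its neighbour H2-DMb2, so H2-DMb1 has no value of its own here. RefSeq places 6 of the 8 measured genes on chromosome 17, Cd74 on chromosome 18 and Ciita on chromosome 16.

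The arrays read LSKCD150- cells, which are early blood progenitors of the bone marrow that lack lineage markers, carry Sca-1 and Kit, and lack the stem cell protein CD150. One genotype was Cebpafl/fl;Mx1Cre (n = 3 mice), in which Cre, induced by pIpC from the interferon-responsive Mx1 promoter, deletes the loxP-flanked gene of the transcription factor C/EBPα. These are called deleted below. The other was Cebpafl/fl without Cre (n = 3 mice), called control. All mice of both genotypes carried the floxed alleles, were given pIpC and were killed on day 18. Whether both genotypes responded to pIpC alike was not tested. The controls had no Cre, and carrying Cre cannot be told apart from losing Cebpa. The Mx1 promoter also acts outside blood-forming cells, and neither the age nor the strain of the mice is given in the sources used here. Values are log2 intensities after RMA (background correction, normalization and summary of the probes of a row), and each array is 1 mouse, named by its genotype and the letter in its title (a to c).

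MHC class II molecules are pairs of an alpha and a beta chain that show peptides from endocytosed proteins to CD4+ T cells. The invariant chain fills their groove on the way to the endosome, H2-DM then exchanges its remnant for peptides, and H2-O restrains H2-DM. Ciita does not bind DNA itself but is recruited by the factors sitting on the X and Y boxes of these genes' promoters. Dendritic cells, B cells and macrophages are the cells best known for making class II.

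The shared promoter boxes are shown for the 5 members whose RefSeq promoter window (GRCm38.p6, 250 bases before to 50 after the annotated start) held both. The search was for a Y box, TGATTGG, with an X box core, GNAAC, starting 20 to 40 bases before it on the same strand, on either strand. Its letters and spacing were settled after these windows had been read. In the lines below the capitals mark the X box core first and the Y box second, and each is printed 5′ to 3′ on the strand of the gene.

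H2-Aa, chr17:34287842-34287929, minus strand: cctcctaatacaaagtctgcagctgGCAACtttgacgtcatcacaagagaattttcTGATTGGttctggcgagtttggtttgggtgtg
H2-Eb1, chr17:34305751-34305837, plus strand: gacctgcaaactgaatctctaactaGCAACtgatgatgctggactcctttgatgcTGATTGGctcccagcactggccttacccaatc
H2-DMb1, chr17:34153072-34153159, plus strand: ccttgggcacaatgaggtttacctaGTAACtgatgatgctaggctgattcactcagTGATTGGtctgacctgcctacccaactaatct
H2-Oa, chr17:34092278-34092365, plus strand: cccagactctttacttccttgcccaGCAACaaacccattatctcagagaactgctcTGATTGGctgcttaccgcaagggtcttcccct
H2-Ob, chr17:34238793-34238877, plus strand: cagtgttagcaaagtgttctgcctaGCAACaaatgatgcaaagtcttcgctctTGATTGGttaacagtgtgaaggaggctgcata

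The same pair of boxes occurred in 187 of all 32851 promoter windows (0.569%), the Y box alone in 7.82% and the X box core alone in 84.8%. From the start of one box to the start of the other lay 31 bases in H2-Aa, H2-DMb1 and H2-Oa, 30 in H2-Eb1 and 28 in H2-Ob. Neither of the 2 windows of H2-DMa held a Y box. H2-Ab1, Cd74 and Ciita were not matched in the promoter table. The letters TTNNGCAA, a C/EBP motif present in 10.8% of all windows on either strand, were in no window of the 6 matched members. A match describes letters only.

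**Figure D1:**
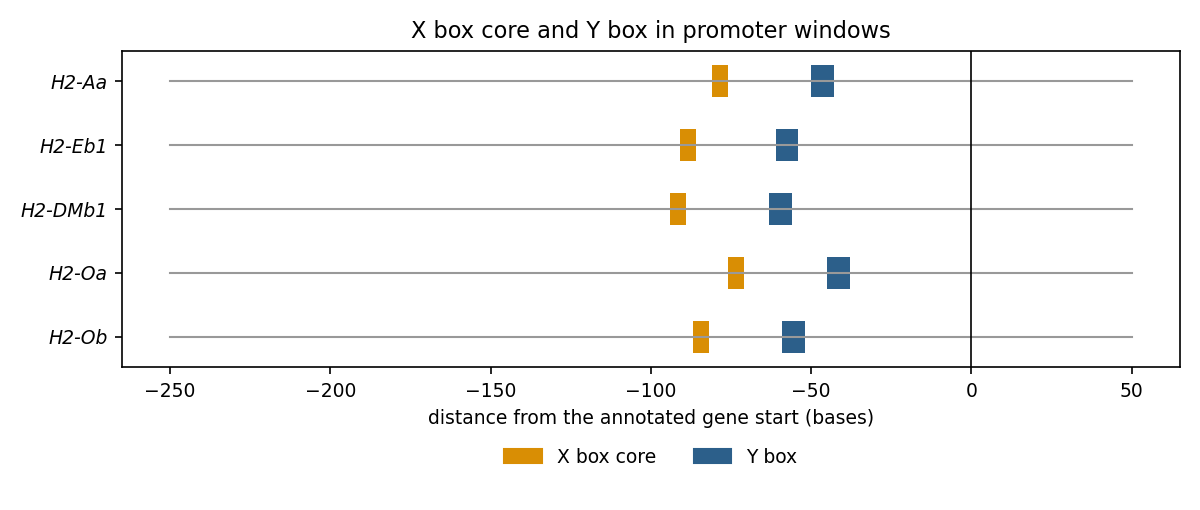
Position of the X box core and the Y box in the promoter windows of 5 members, in bases from the annotated start of the gene (line at 0). In each window the Y box begins 28 to 31 bases after the X box core.

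Over all 19938 genes, limma called 286 at a Benjamini-Hochberg adjusted p under 0.05 (1.43%), of which 49.0% were higher in deleted cells, a share that was 61.6% with quantile normalization and 65.8% with arrays centred on their medians. The median log2 fold change (deleted minus control) of all genes was 0.03. Cebpa, the deleted gene, averaged 6.09 ± 0.27 on deleted arrays and 7.80 ± 0.06 on control arrays (SD, n = 3 each, adjusted p = 0.000883). Where its probes lie relative to the deleted part is not given. Of the surface markers, Cd48 rose by 1.00 and Kit, named in the sort above, fell by 0.75 (adjusted p = 0.0052 and 0.027). The call for Kit was lost without any 1 array other than deleted a (adjusted p from 0.0537 to 0.101). Slamf1, which encodes CD150, read low on all arrays (3.94 to 4.86 on deleted and 3.48 to 3.93 on control arrays). The sources call the mice female, yet the Y-linked genes Kdm5d, Eif2s3y and Uty read between 6.61 and 8.49 on all 6 arrays.

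Most class II genes had lower mean levels in deleted cells, but no single gene passed the test. Of the 8 measured members 7 were negative in log2 fold change, as were 43.5% of all genes, and Ciita was near 0. The members' median was -0.35, beside 0.03 for all genes. None was called (0 of 8, background 1.43% in either direction and 0.732% for lower genes). At an unadjusted p under 0.05 limma had 4 members, where 15.9% of all genes lay, and an ordinary pooled-variance test had 2, where 13% of all genes lay. The genotypes did not overlap for 3 members, all lower in deleted cells (background 21.2% in either direction and 8.68% for lower genes). The members' summed intensity lay at 10.75 to 10.77 on deleted arrays and at 11.02 to 11.36 on control arrays (log2 of the sum). The brightest member, H2-Ab1, weighs most in this sum, and its own genotypes overlapped.

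The alpha chain H2-Aa showed the largest difference of the 3 measured chains. It read 6.33, 6.59 and 7.10 on deleted arrays a, b and c, against 7.77, 7.08 and 7.69 on control arrays a, b and c. The genotypes touched only where deleted c lay just above control b. The log2 fold change was -0.84 ± 0.22 (SE), a 1.79-fold lower level with a 95% interval of 1.26 to 2.53, and the adjusted p was 0.106.

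H2-Ab1 encodes the beta chain that pairs with H2-Aa. It read 9.50, 9.46 and 9.47 on deleted arrays, against 10.005, 9.38 and 10.04 on control arrays. Deleted mice lay close together (SD 0.02), while controls a and c stood above all of them and control b below (SD 0.37). The log2 fold change was -0.33 ± 0.17 (SE), with an interval of -0.71 to 0.04 and an adjusted p of 0.382.

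H2-Eb1, the beta chain of the second class II molecule, also had controls a and c above all deleted mice. It read 6.53, 6.51 and 6.61 on deleted arrays, against 7.46, 6.54 and 7.08 on control arrays. Control b sat among the deleted values here. The log2 fold change was -0.47 ± 0.20 (SE), with an interval of -0.92 to -0.03 and an adjusted p of 0.281. Its partner alpha chain gene H2-Ea, which RefSeq lists as a transcribed pseudogene in GRCm38.p6, averaged 5.06 on deleted and 4.94 on control arrays, below the median of all values (6.20).

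Cd74, the invariant chain, did not separate the genotypes. It read 6.81, 6.52 and 6.26 on deleted arrays, against 6.85, 6.40 and 6.74 on control arrays. The ranges covered each other almost wholly, and the log2 fold change of -0.14 ± 0.16 (SE) had an interval of -0.50 to 0.23 (adjusted p = 0.753).

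**Figure D2:**
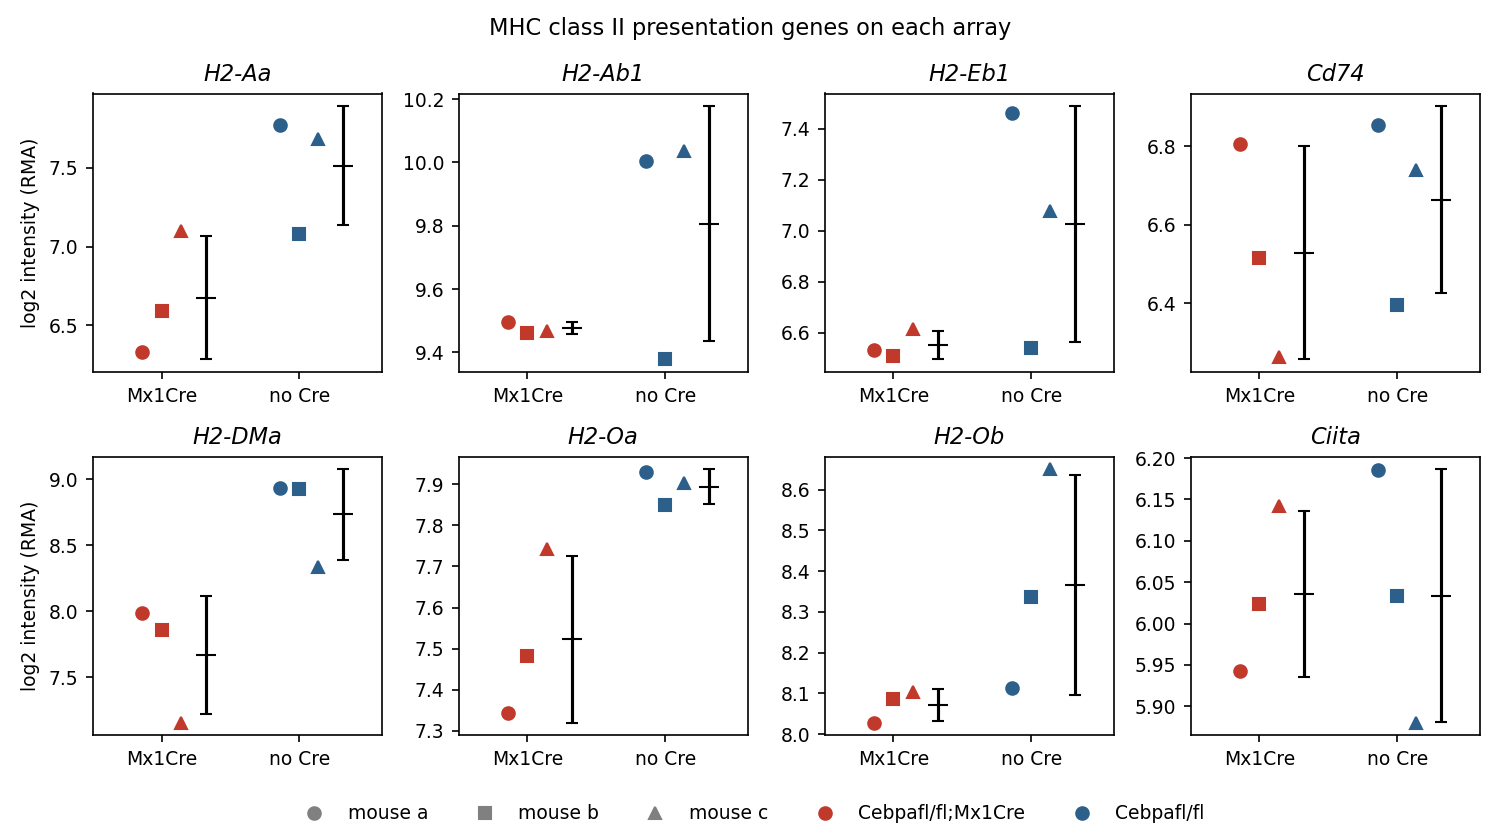
Log2 intensity of the 8 measured members on each array, deleted mice (Mx1Cre, red) left of controls (no Cre, blue); symbols mark the letters of the sample titles and black bars the mean ± SD of 3 mice. H2-DMa, H2-Oa and H2-Ob do not overlap, and control b lies at the level of the deleted mice for H2-Ab1 and H2-Eb1.

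Among the loading factors, H2-DMa had the largest difference of all members. This alpha chain of the peptide editor H2-DM read 7.99, 7.86 and 7.16 on deleted arrays, against 8.93, 8.92 and 8.34 on control arrays. Every deleted value lay below every control value, with the lowest array of each genotype labelled c. The log2 fold change was -1.06 ± 0.23 (SE), a 2.09-fold lower level with an interval of 1.46 to 2.99, and the adjusted p of 0.0611 missed the threshold. It passed without control c (0.0417), in the brighter part of the genes, not under the median in mean intensity (0.0417), and with the title letters as a block (0.00825), and its adjusted p reached 0.343 with the ordinary pooled-variance test.

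H2-Oa and H2-Ob, the alpha and beta chains of the H2-DM inhibitor H2-O, were lower by smaller amounts. H2-Oa read 7.34, 7.48 and 7.74 on deleted arrays, against 7.93, 7.85 and 7.90 on control arrays. Controls were tight (SD 0.04) and all above the deleted mice, and the log2 fold change was -0.37 ± 0.12 (SE, adjusted p = 0.177).

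H2-Ob read 8.03, 8.09 and 8.10 on deleted arrays, against 8.11, 8.34 and 8.65 on control arrays. Here the deleted mice were tight (SD 0.04), control a lay barely above the highest of them, and the groups overlapped after quantile normalization or median centring. The log2 fold change was -0.29 ± 0.14 (SE, adjusted p = 0.343). Both H2-O chains thus had negative values along with H2-DMa, and neither passed.

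Ciita itself showed no difference beyond its spread. It read 5.94, 6.02 and 6.14 on deleted arrays, against 6.19, 6.03 and 5.88 on control arrays. The log2 fold change was 0.00 ± 0.12 (SE), with an interval of -0.26 to 0.26 and an adjusted p of 0.993. None of the 6 values exceeded the median over the whole table, 6.20, where background weighs more on a signal.

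**Figure D3:**
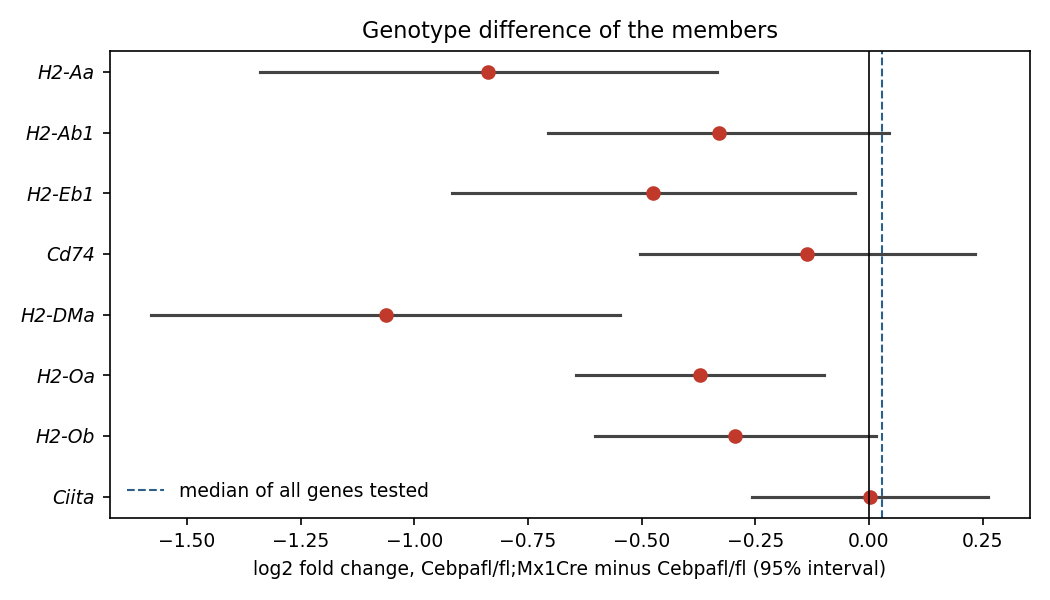
Log2 fold change (deleted minus control) of each member with its 95% interval from limma, and the median of all genes (dashed, 0.03). The intervals of H2-Aa, H2-Eb1, H2-DMa and H2-Oa lie below 0, those of H2-Ab1, Cd74, H2-Ob and Ciita include it, and none of the 8 genes passed after adjustment over all genes.

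The members did not share 1 order of mice. Control b was the lowest control for 5 of 8 members (H2-Aa, H2-Ab1, H2-Eb1, H2-Oa and Cd74), yet was close to the highest for H2-DMa. The count of members whose genotypes were apart stayed at 3 when deleted a, deleted b, control a or control c was left out, where 30.7% to 35.4% of all genes were apart. Without control b they were apart for 6 members (H2-Aa, H2-Ab1 and H2-Eb1 as well), where 28.6% of all genes were apart. Without deleted c they were apart for 5 members (H2-Aa and H2-Eb1 as well), where 30.1% of all genes were. For H2-Ab1 the log2 fold change was -0.55 without control b (adjusted p = 0.0987), -0.23 without control a (0.646) and -0.22 without control c (0.651). That of H2-Eb1 was -0.72 without control b (adjusted p = 0.0881), -0.26 without control a (0.560) and -0.45 without control c (0.435). Neither gene passed under any of these omissions.

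Pearson's r over the 6 arrays was above 0.5 for 11 of the 28 pairs of members, with a median of 0.47. After taking each genotype's mean away the median was 0.08. On that scale H2-Ab1 with H2-Eb1 (r = 0.88) and H2-Aa with H2-Oa (r = 0.84) moved alike, whereas H2-Aa with H2-DMa (r = -0.72) and H2-DMa with H2-Oa (r = -0.78) ran in opposite orders. These are descriptions over 6 arrays that every pair shares. In RNA of sorted cells, fewer cells with class II and less class II RNA per cell cannot be told apart.

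**Figure D4:**
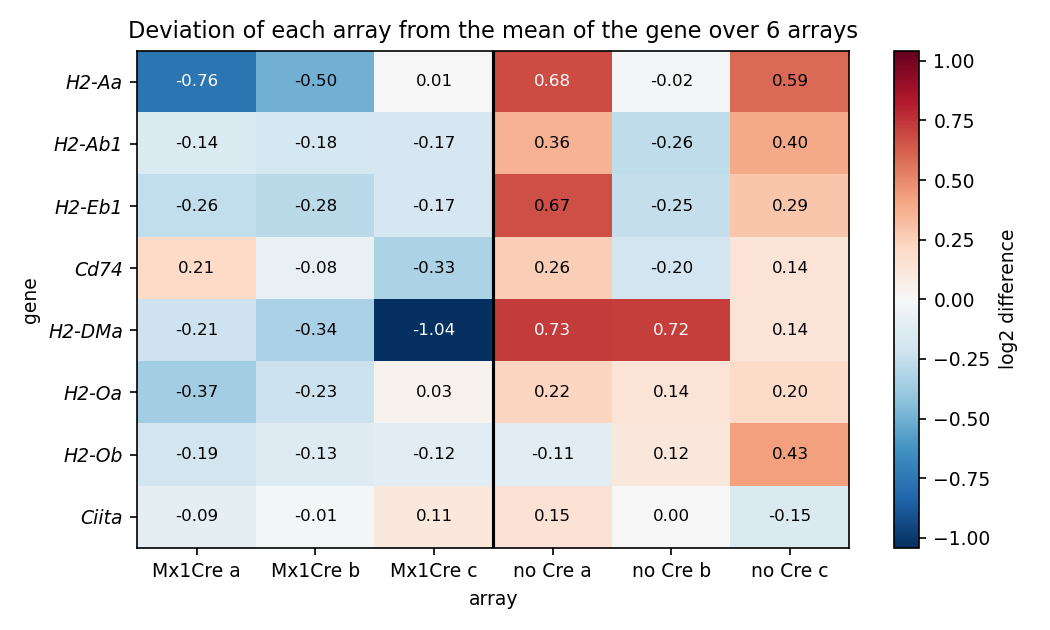
Each array's deviation from the mean of the gene over 6 arrays (log2, colour and number), deleted mice left of the line and controls right. H2-DMa is lowest in deleted c (-1.04) and H2-Aa in deleted a (-0.76); control b is negative for H2-Ab1 (-0.26), H2-Eb1 (-0.25) and Cd74 (-0.20).

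The genes most like H2-DMa over the 6 arrays were Csad, Tcirg1, Adgrg1, Nrros and Tbxas1, with r from 0.987 to 0.991, and from 0.954 to 0.976 within genotypes. Those most like H2-Aa were Myl10, Efcab11, Syne2, Itgb5 and Tmbim1, with r from 0.922 to 0.984, and from 0.765 to 0.954 within genotypes. They were ranked among 1313 brighter and more variable genes. The r within genotypes comes from the same arrays that ranked the genes, so its height is partly fixed by that ranking. The genotype difference is also part of the likeness, and with it a lower level in deleted cells. Their log2 fold changes are therefore given without a test: Tbxas1 at -0.92 had the lowest among those like H2-DMa and Csad at -0.53 the highest, and Syne2 at -1.30 and Efcab11 at -0.45 were the corresponding ends for H2-Aa.

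By RefSeq order, 14 protein-coding genes run from H2-Oa to H2-Eb2 on chromosome 17, and 12 were measured, 6 of them members. All 12 had a negative log2 fold change, as did 43.5% of all genes, although H2-Eb2 (-0.02) turned positive under median centring. The non-members had a median of -0.15: the chromatin reader Brd2 (-0.15), the immunoproteasome subunits Psmb9 (-0.49) and Psmb8 (-0.12), the peptide transporter chains Tap1 (-0.36) and Tap2 (-0.14), and H2-Eb2. None of these 6 passed limma's adjusted test. Psmb9, Psmb8, Tap1 and Tap2 are also counted in the class I list below, so the tallies share genes. The stretch was chosen after its values were known.

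The factors through which Ciita acts were not called in either direction. Of 11 measured genes (the RFX and NF-Y subunits, Creb1 and cofactors), 5 had positive and 6 negative values, with a median of -0.14. At an unadjusted p under 0.05, where 15.9% of all genes lay, limma had 1. That gene was Nfyb, an NF-Y subunit, which read 9.35, 9.13 and 9.30 on deleted arrays, against 8.81, 8.88 and 8.84 on control arrays (log2 fold change 0.41 ± 0.10 SE, adjusted p = 0.090). Its deleted values all lay above its control values. Nfya and Rfxap followed by p, at 0.25 and 0.21 (adjusted p = 0.379 and 0.403).

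Of 16 measured regulators of Ciita and genes of interferon-gamma signalling, none passed and the median was 0.07. At an unadjusted p under 0.05, where 15.9% of all genes lay, limma had 2. The repressor Zeb1 was at -0.38 ± 0.13 (SE, adjusted p = 0.193), the myeloid factor Spi1 at 0.30 ± 0.12 (SE, adjusted p = 0.274) and the receptor chain Ifngr2 at -0.31 ± 0.14 (SE, adjusted p = 0.322). Of 15 genes that process the invariant chain and antigens or turn class II over, none passed and the median was -0.03. In limma 5 of these 15 had an unadjusted p under 0.05, again beside 15.9% of all genes. The thiol reductase Ifi30 was at 0.41, the protease Lgmn at 0.40 and the cathepsin Ctsh at -0.38 (adjusted p = 0.149, 0.191 and 0.184). The others under that p, Ctse and Marchf1, were at 0.33 and 0.24 (adjusted p = 0.291 and 0.303). Lgmn (5.55 on deleted and 5.15 on control arrays) and Ctsh (4.68 and 5.05) averaged below the median of all values. Ctss, the cathepsin that trims the invariant chain, was at -0.08.

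Class I presentation was the nearest neighbour in function. Of 22 listed genes 17 were measured. The class I chain genes H2-K1, H2-D1, H2-L, H2-T23 and H2-Q7 had no value here. H2-M3 and H2-Q4 were the only H2 genes of this list with a value. Of the 17 measured genes 14 were negative in log2 fold change (median -0.13), as were 43.5% of all genes. Of the 17, 1 was called lower and none higher, beside 1.43% of all genes called in either direction. The genotypes did not overlap for 7 of the 17 in either direction (21.2% of all genes). In limma 5 had an unadjusted p under 0.05 (15.9% of all genes). The class I gene H2-Q4 read 6.31, 5.91 and 5.96 on deleted arrays, against 7.24, 6.82 and 6.74 on control arrays (log2 fold change -0.87 ± 0.16 SE, adjusted p = 0.034). It did not pass with deleted b (adjusted p = 0.122), deleted c (0.101), control a (0.0769) or control b (0.0881) left out. Its groups were apart, but class I genes of this family are near copies and their probes may read each other. Tapbpl (-0.40, adjusted p = 0.137) and Psmb9 (adjusted p = 0.184) did not pass. None of 10 costimulatory ligands passed and none had an unadjusted p under 0.05, with Cd80 at 0.20, Pdcd1lg2 at 0.14 and Cd274 at -0.20 (adjusted p = 0.417, 0.595 and 0.682). No difference between these lists and the class II genes was tested.

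**Figure D5:**
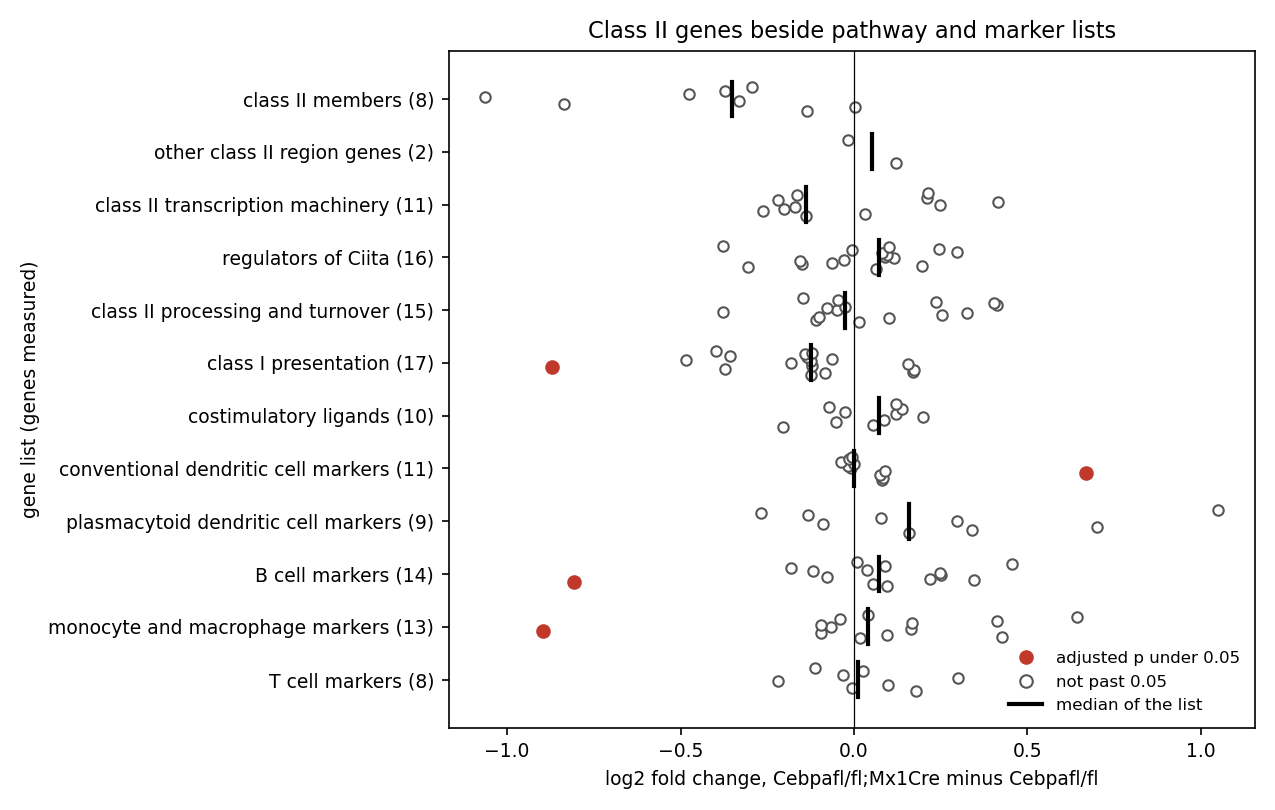
Log2 fold changes (deleted minus control) of the class II members and of 11 pathway and marker lists, with the number of genes measured in parentheses; filled red points passed an adjusted p under 0.05 and black bars are medians. The class II median is -0.35, that of the class I list -0.13, and those of the 5 cell marker lists lie between 0.00 and 0.16.

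Markers of other cells that make class II had list medians from 0.00 to 0.16. The summed intensity of 11 conventional dendritic cell markers lay at 9.39 to 9.46 on deleted and 9.30 to 9.43 on control arrays, with 8 of 11 below the median of all values. Of these, the lectin Clec10a rose by 0.67 ± 0.13 (SE, adjusted p = 0.0384), a call lost under 9 of 17 alternatives, among them the omission of any 1 of the 6 arrays (adjusted p from 0.0681 to 0.125). Batf3 (0.08), Clec9a (0.09), Itgax (0.00) and Zbtb46 (-0.01) were not called, and Itgax and Zbtb46, both defining markers, averaged 6.16 and 6.01 on deleted arrays and 6.16 and 6.02 on control arrays.

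The 9 plasmacytoid dendritic cell markers summed to 10.55 to 10.63 on deleted and 10.32 to 10.48 on control arrays. None passed. In limma 3 had an unadjusted p under 0.05 (15.9% of all genes), namely Tlr7 (1.05, adjusted p = 0.0546), Cox6a2 (0.70, 0.1005) and Tcf4 (-0.27, 0.314). Tlr7 passed under 6 of 16 alternatives (adjusted p from 0.0157 to 0.332) and Cox6a2 under 2 of 18 (0.0313 to 0.372). Tlr7 averaged 5.83 on deleted and 4.78 on control arrays, below the median of all values. The 14 B cell markers summed to 10.55 to 10.65 on deleted and 10.63 to 10.70 on control arrays. Cd72, a B cell coreceptor, fell by 0.81 ± 0.12 (SE, adjusted p = 0.0151; 0.0702 without control b and 0.0539 without deleted b), while Vpreb1 and Ebf1 were at 0.46 and 0.25 (adjusted p = 0.096 and 0.401). Of the 14, 8 averaged below the median of all values, among them Cd79a (4.89 on deleted and 4.55 on control arrays) and Ms4a1 (4.34 and 4.52). Cd79b, the signalling partner of Cd79a, and Vpreb1 lay above it, at 7.62 and 8.83 on deleted arrays and 7.40 and 8.37 on control arrays.

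The 13 monocyte and macrophage markers summed to 9.70 to 9.84 on deleted and 9.84 to 9.89 on control arrays, a sum in which bright genes weigh most. Of the 13, 8 had positive and 5 negative log2 fold changes (median 0.04), and 10 averaged below the median of all values. Cd68, found in the lysosomal membrane of phagocytes, was lower by 0.90 ± 0.10 on the log2 scale (SE, adjusted p = 0.0052), and Itgam and Spic were at 0.41 and 0.64 (adjusted p = 0.146 and 0.222; Spic 0.0241 without deleted a). The defining markers Csf1r and Adgre1 averaged 5.90 and 4.50 on deleted arrays and 5.74 and 4.48 on control arrays. The 8 T cell markers summed to 8.65 to 8.78 on deleted and 8.63 to 8.74 on control arrays, and none was called or had an unadjusted p under 0.05, with Cd3e, Cd247 and Cd3g at -0.22, 0.18 and 0.30. The part of such cells in the class II values was not tested.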

How the data were processed

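RNA of sorted cells of 6 mice (20 ng each, amplified) was read on 1-colour Affymetrix gene arrays. The deposited values are log2 intensities of 35556 rows, used unchanged; the tools listed per the submitters' processing notes are RMA and Affymetrix Expression Console 1.1.2, and their settings, with the annotation's build, were not given in the sources used here. Rows were named from a platform annotation table: 21789 name 1 gene, 1621 name more than 1, and for 12146 it gives no name. RefSeq held 19856 of the 19939 gene IDs. No filter on dim rows was applied. The number of arrays limits precision.

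The comparison of genotypes used limma 3.58.1 under R 4.3.3 (lmFit, then eBayes, two-sided, no block, Benjamini-Hochberg over all genes, threshold 0.05, all 6 arrays). It was checked on simulated data with independent noise, where high recovery was required only for a difference larger than any member showed. Motifs and figures used Python 3.11.15 and matplotlib 3.10.9. Named genes are the members, Cebpa, genes of the lists past the threshold or with the 3 smallest p, and the 5 genes most like H2-DMa and H2-Aa (mean at or above the median, SD of at least 0.3); others, such as defining markers and neighbours on the chromosome, were named after their values were seen. The members and lists were chosen with earlier results of these data known. Same-lettered arrays of the genotypes did not deviate together (r = -0.01, -0.04 and 0.06 over all genes). The labels do not say that the letters pair mice, and r over all genes cannot exclude it. The alternatives were other priors, filters, normalizations and row rules, array weights, the letters as a block, an ordinary pooled-variance test and the omission of each array.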

Additional observations from a re-analysis of the deposited data

How the results depend on the processing

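Of the members, H2-DMa passed under 3 of 18 alternatives and the others under none. In the brighter part of the genes (those not under the median in mean intensity) 1 of 7 tested members was called, beside 4.39% of the 9969 genes tested. With the replicate block (title letters) 1 of 8 was called, beside 1.37% of all genes. With an array left out 0 to 1 of 8 was called, beside 0.266% to 1.25% of all genes. The block gave 274 calls over all genes. Every alternative left H2-Aa, H2-Ab1, H2-Eb1, H2-DMa, H2-Oa, H2-Ob and Cd74 negative, and the members' median between -0.47 and -0.29. Ciita moved between -0.0739 and 0.079 as arrays were left out. The 286 calls over all genes became 438 in that brighter part, where fewer genes are tested, 13 over every deposited row, 0 with the pooled-variance test (2585 genes at an unadjusted p under 0.05) and 53 (without control b) to 250 (without control c) with an array left out. Signs also turned for H2-Eb2 (0.0318 under median centring, -0.0558 to 0.0095 with an array left out), Clec9a (-0.0034 under cyclic loess), Batf3 (-0.0116 to 0.14) and Cd274 (-0.36 to 0.0422) with an array left out, none called; the cause was not tested. Of the called list genes, Cd48 and Cd68 passed under 16, Cd72 under 14, H2-Q4 under 12 and Kit under 11 of 18 alternatives, and Clec10a under 8 of 17. Not called on the deposited values, Tlr7 passed under 6 of 16, Cox6a2 under 2 of 18 and Spic under 1 of 16.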

Other observations

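The row that names both H2-DMb1 and H2-DMb2, whose probes cannot be assigned to 1 of the 2 genes, read 7.36, 7.52 and 7.62 on deleted arrays, against 7.77, 7.53 and 7.51 on control arrays. The groups overlapped, and the log2 fold change was -0.10, beside -1.06 for H2-DMa, the alpha chain with which H2-DM beta chains pair. The difference between these 2 rows was not tested.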
